A study of Mus musculus with 4 samples.

Results

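The genes described here are 10 regulators of the G1 phase of the cell cycle, taken by name: the D cyclins Ccnd2 and Ccnd3, the kinases Cdk4 and Cdk6, the pocket proteins Rb1 and Rbl1, the transcription factor E2f3, and the CDK inhibitors Cdkn1a, Cdkn1b and Cdkn2c. They are 10 of 52636 gene identifiers counted, and 10 of 10 passed the expression filter that left 18172 genes for testing. The RNA came from sorted mouse kidney cells, 3000 per library, in 2 libraries labelled Brg1-cKO and 2 labelled control. Brg1, encoded by Smarca4, is an ATPase of SWI/SNF chromatin remodelling complexes, and the study asked what these complexes do in the progenitors of the nephron. The sources used here do not give the age of the animals, the alleles, the Cre driver or the sort marker. They also do not say whether a group's libraries were made from different animals, so p-values measure library-to-library spread that may be technical.

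In G1, a D cyclin binds Cdk4 or Cdk6, and the active kinase phosphorylates the pocket proteins, which releases the E2F factors that drive the genes of DNA replication. The Cip/Kip inhibitors (Cdkn1a, Cdkn1b, Cdkn1c) bind cyclin-CDK complexes broadly, whereas the INK4 inhibitors (Cdkn2a to Cdkn2d) bind Cdk4 and Cdk6 themselves. In the embryonic kidney, progenitors cycle in the cap mesenchyme, and differentiating podocytes leave the cycle and accumulate Cdkn1c.

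Reads counted in genes came to 14645665 and 10922272 in the Brg1-cKO libraries, against 35411905 and 37999342 in the control libraries. The Brg1-cKO libraries also stood apart from each other: over 13407 genes with a count in every library, the median gap between replicates was 0.83 on the log2 scale for Brg1-cKO and 0.12 for control. Smarca4 itself was counted at 757 and 688 CPM (reads scaled to a common library size) in Brg1-cKO libraries, against 894 and 933 CPM in control libraries (log2 fold change -0.34, SE 0.09, adjusted p = 0.167 in edgeR's quasi-likelihood test). The transcript Xist and the Y-linked gene Ddx3y also separated the groups. Xist stood at 832 and 1200 CPM in Brg1-cKO libraries, against 243 and 216 CPM in control libraries. Ddx3y stood at 1.04 and 3.25 CPM in Brg1-cKO libraries, against 75.6 and 78.4 CPM in control libraries, so sex and genotype cannot be told apart. Both transcripts were counted in each control library, so the controls are not read here as of a single sex. Transcript levels of cell type markers differed as well. The 6 nephron progenitor markers were counted in every library, with summed levels of 544 and 507 CPM in Brg1-cKO libraries, against 575 and 538 CPM in control libraries. These sums hide opposite signs: 1 marker (Osr1) was higher and 2 (Six2, Meox1) were lower in both Brg1-cKO libraries, and the rest overlapped. Early nephron markers (4 of 6 higher, 1 lower) summed to 1529 and 1450 CPM in Brg1-cKO libraries, against 804.5 and 803 CPM in control libraries. The 7 podocyte markers were all higher in Brg1-cKO libraries, with sums of 2649 and 2354 CPM, against 508 and 513 CPM in control libraries. Stromal markers (6 of 7 lower) summed to 1281 and 1321 CPM in Brg1-cKO libraries, against 2618 and 2578 CPM in control libraries, and endothelial markers (6 of 6 lower) to 257 and 137 CPM, against 521 and 529 CPM. Ureteric bud markers (5 of 7 lower) summed to 133 and 56.2 CPM in Brg1-cKO libraries, against 161 and 167 CPM in control libraries. Of these, Calb1, Wnt7b and Wnt9b were at 0 in both Brg1-cKO libraries, while Gata3 and Hoxb7 overlapped between the groups. Tubule markers were mixed (2 of 7 higher, 1 lower), and 4 of 6 immune markers were lower. In these marker counts, higher and lower mean that the groups did not overlap. Of all genes tested, 17.5% were higher and 34.5% lower by that rule. Of the 18172 genes tested, 1527 were at 0 in both Brg1-cKO libraries and 52 in both control libraries. A gene at 0 in both libraries of a group passed the filter only through the other group. The Brg1-cKO libraries also held fewer reads, and the part of read depth in these counts was not tested. In such samples fewer cells of a type and less RNA per cell cannot be told apart, and the part of cell make-up in the results below was not tested.

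In edgeR's quasi-likelihood test, with p adjusted over all 18172 genes, 0% of genes and none of the 10 reached the threshold of 0.05. Ccnd2 was the only one of the 10 at an unadjusted p under 0.05, and was lower in Brg1-cKO libraries, at 53.6% of its control mean. Of all genes tested, 12.9% (2340) were lower at that level and 5.44% (988) were higher. The count of 1 of 10 is thus near the share of all genes and no result about these genes. In 5 of the 10 genes (Ccnd2, Ccnd3, Cdk4, Cdkn1a, Cdkn1b) both Brg1-cKO libraries lay below both control libraries, and in Cdk6 both lay above. Across all genes tested, 34.5% had non-overlapping groups with Brg1-cKO lower and 17.5% with Brg1-cKO higher, so the counts of 5 and 1 of 10 are no result about these genes. The groups overlapped in Rb1, Rbl1, Cdkn2c and E2f3. The median log2 fold change of the 10 was -0.22, against -0.06 over all genes tested, and 8 of 10 were below 0, as were 9625 of the 18172 genes tested. Without Brg1-cKO replicate 2 the medians were -0.15 for the 10 and -0.35 over those genes. In DESeq2, 2021 genes passed an adjusted p of 0.05, and Ccnd2 was the only one of the 10 among them. Of the 18937 genes to which DESeq2 gave an adjusted p, 4.09% passed as lower and 6.58% as higher in Brg1-cKO libraries. By that threshold edgeR's likelihood ratio test called 2471 genes, 10.6% of those tested being lower and 3.03% higher, and limma-voom called 112. The balance of lower and higher calls thus turned with the tool.

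**Figure D1:**
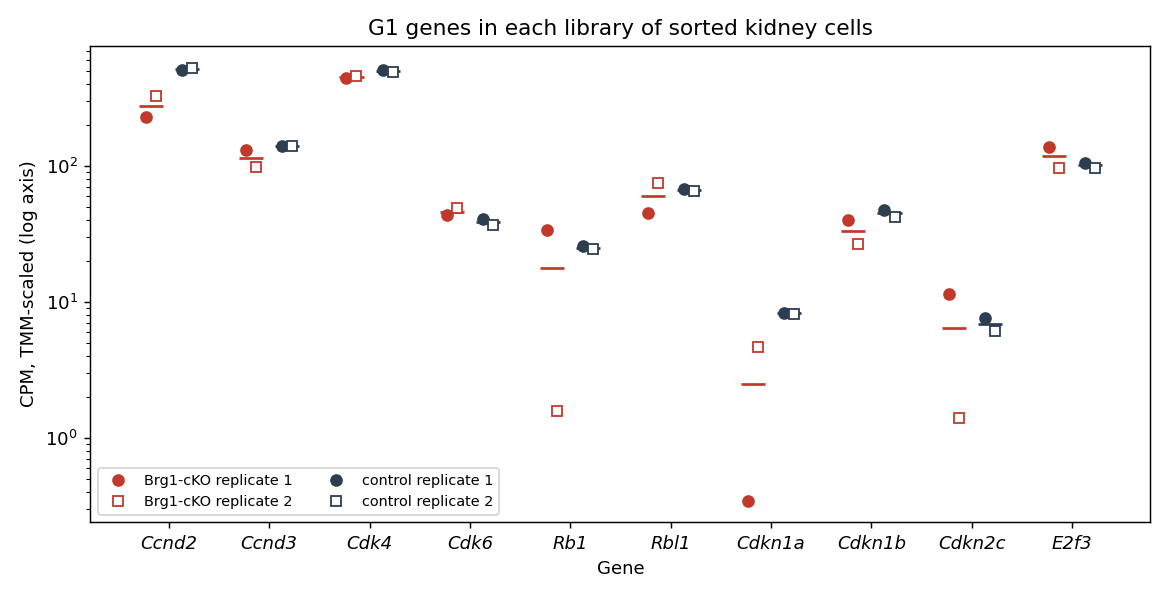
Level in CPM (TMM-scaled library sizes, log axis) of the 10 G1 genes in each Brg1-cKO library and each control library, with a bar at the group mean. Ccnd2 lies at 229 and 324 CPM in Brg1-cKO libraries, below 503 and 527 CPM in control libraries, while the Brg1-cKO points of Rb1, Cdkn1a and Cdkn2c lie far apart.

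Ccnd2 encodes a D cyclin that pairs with Cdk4 and Cdk6 and whose level follows growth signals. Its gene lies on the minus strand of chromosome 6 (chr6:127125162-127152193, mm10). It was counted at 229 and 324 CPM in Brg1-cKO libraries (3288 and 3479 reads), against 503 and 527 CPM in control libraries (18072 and 20436 reads). Both Brg1-cKO libraries were below both control libraries, and the gap between them was smaller than the distance to the controls. The means were 276 ± 67.0 CPM for Brg1-cKO and 515 ± 17.5 CPM for control (SD, n = 2 each). The log2 fold change was -0.90 (SE 0.20, unadjusted p = 0.012, adjusted p = 0.166 in edgeR's quasi-likelihood test). Other tools gave other calls: the adjusted p was 0.0069 in DESeq2 and 0.0124 in edgeR's likelihood ratio test, and 0.0999 in limma-voom. The direction held in each of the 16 alternatives run, which reuse the same libraries. Since the groups did not overlap, leaving out a library could not be expected to turn it. The log2 fold change was -1.19 without Brg1-cKO replicate 2 and -0.70 without Brg1-cKO replicate 1.

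Ccnd3, the D cyclin best known from lymphoid and muscle cells, lies on the plus strand of chromosome 17 (chr17:47505051-47599691, mm10). Ccnd3 was counted at 131 and 97.4 CPM in Brg1-cKO libraries, against 140.5 and 139.5 CPM in control libraries. The groups did not overlap, but Brg1-cKO replicate 1 was close to the controls. The log2 fold change was -0.30 (SE 0.21, adjusted p = 0.588 in edgeR's quasi-likelihood test).

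Ccnd1, the third D cyclin, had a fold change of the opposite sign. Ccnd1 was counted at 740 and 610 CPM in Brg1-cKO libraries, against 456 and 452 CPM in control libraries, with no overlap (log2 fold change 0.57, SE 0.13, adjusted p = 0.166 in edgeR's quasi-likelihood test, 0.00216 in DESeq2). Per kilobase of exon, the Ccnd1 level was 6.46 and 3.77 times that of Ccnd2 in Brg1-cKO libraries, against 1.81 and 1.71 times in control libraries. Ccnd2 thus made up 16.0 ± 5.14% of the length-scaled D cyclin counts in Brg1-cKO libraries and 32.8 ± 0.878% in control libraries (SD, n = 2 each). Ccnd1 made up 77.0 ± 4.25% and 57.7 ± 0.763%, and Ccnd3 6.97 ± 0.886% and 9.55 ± 0.115%, in Brg1-cKO and control libraries. The 3 genes together summed to 196 and 175 RPKM (CPM per kilobase of exon) in Brg1-cKO libraries, against 166 and 168 RPKM in control libraries. This sum depended on the length used. Without division by length it was 1099 and 1031 CPM in Brg1-cKO libraries, against 1099 and 1119 CPM in control libraries, and with principal transcript lengths the groups overlapped. Each of the 3 shares separated the groups under all 3 scales, and their exact permutation p was 0.333, the smallest that 2 against 2 libraries allow. Antisense genes overlap 23.4% of the exon length of Ccnd1 and 3.95% or less of that of Ccnd2. Whether strand was used in counting is not known, so reads of Ccnd1 and its antisense neighbour cannot be told apart.

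**Figure D2:**
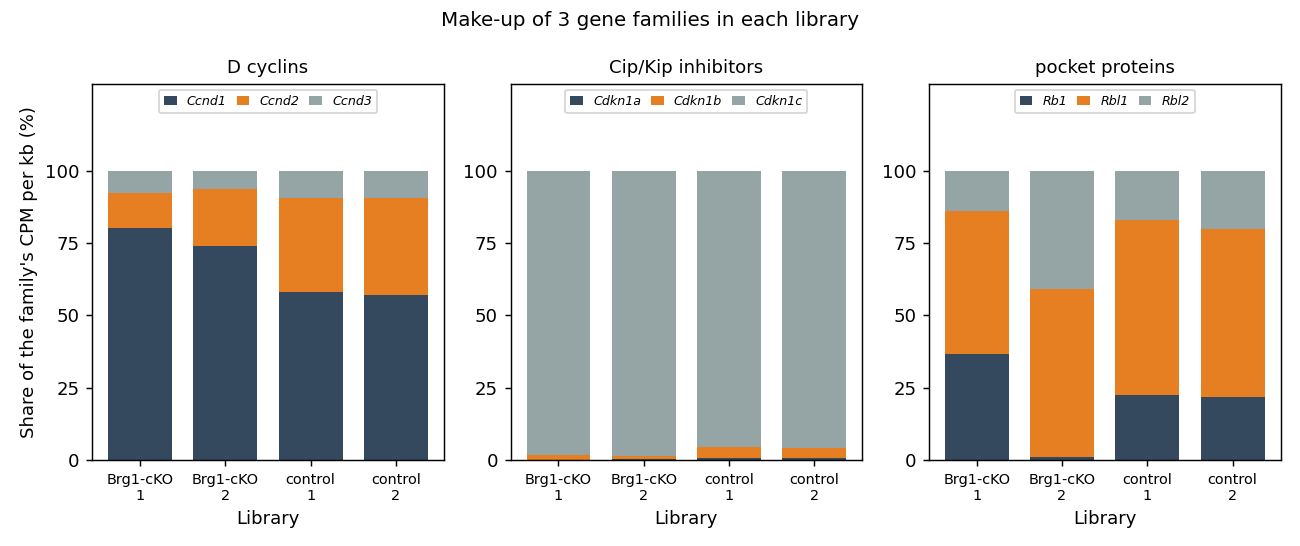
Share (%) of each gene in the length-scaled counts (CPM per kb of exon) of the D cyclins, the Cip/Kip inhibitors and the pocket proteins, as 1 stacked bar per library, Brg1-cKO left of control. Ccnd2 takes 12.4% and 19.6% of the D cyclin bar in Brg1-cKO libraries, against 32.1% and 33.4% in control libraries, and Rb1 takes 1.21% of the pocket protein bar of Brg1-cKO replicate 2.

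Neither kinase was called. Cdk4, the main partner of the D cyclins in many embryonic cells, lies on the plus strand of chromosome 10 (chr10:127063534-127067920, mm10). Its level was 445 and 458 CPM in Brg1-cKO libraries, against 502 and 490 CPM in control libraries, a narrow but non-overlapping difference. Its means were 452 ± 9.18 CPM and 496 ± 8.64 CPM (SD, n = 2 each), or 91.0% of control in Brg1-cKO libraries. Cdk4 had the smallest standard error of the 10 genes (log2 fold change -0.14, SE 0.09, adjusted p = 0.548 in edgeR's quasi-likelihood test). The gene Tspan31 on the opposite strand overlaps 19.7% of its exon length. Cdk6, the kinase associated most with blood cells and with progenitors, lies on the plus strand of chromosome 5 (chr5:3341485-3531008, mm10). Its level was 43.5 and 48.8 CPM in Brg1-cKO libraries, against 40.7 and 36.8 CPM in control libraries (log2 fold change 0.25, SE 0.27, adjusted p = 0.719 in edgeR's quasi-likelihood test). It was the only one of the 10 genes with both Brg1-cKO libraries above both controls. Per kilobase, Cdk4 stood 44.1 and 40.4 times above Cdk6 in Brg1-cKO libraries, against 53.2 and 57.4 times in control libraries, so Cdk6 was a small share of the pair in every library. Ccnd2 per Cdk4, a ratio of cyclin to kinase transcripts per kilobase, was 0.177 and 0.244 in Brg1-cKO libraries, against 0.346 and 0.372 in control libraries.

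Since E2F factors and pocket proteins act on promoters, the start regions of the members were searched for letters of an E2F site. RefSeq (GRCm38.p6) promoter windows, 250 bases before to 50 bases after a start, matched 8 of 10 genes with 12 windows, and none was at hand for Ccnd2 or Rb1. The motif TTTNNCGC, on either strand, was found in 3 of 12 windows and in 5.17% of all 32851 windows. The GC box GGGCGG was found in 9 of 12 windows and in 35.66% of all, and TTTGAA, the core of the cell cycle homology region, in 1 of 12 and in 17.89% of all. These are matches of letters, not sites shown to be bound. The 3 windows with the E2F motif, in capitals, belong to Cdk6 (plus strand, chr5:3343643-3343942), Rbl1 (minus strand, chr2:157204485-157204784) and E2f3 (minus strand, chr13:29986014-29986313), and are shown because E2F factors and pocket proteins are partners in the same circuit.
Cdk6: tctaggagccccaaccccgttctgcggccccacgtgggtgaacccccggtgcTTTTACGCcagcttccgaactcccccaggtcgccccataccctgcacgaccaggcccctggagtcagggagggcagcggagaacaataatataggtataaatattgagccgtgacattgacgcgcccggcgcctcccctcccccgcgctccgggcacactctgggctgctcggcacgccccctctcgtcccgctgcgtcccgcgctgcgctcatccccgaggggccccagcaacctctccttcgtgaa
Rbl1: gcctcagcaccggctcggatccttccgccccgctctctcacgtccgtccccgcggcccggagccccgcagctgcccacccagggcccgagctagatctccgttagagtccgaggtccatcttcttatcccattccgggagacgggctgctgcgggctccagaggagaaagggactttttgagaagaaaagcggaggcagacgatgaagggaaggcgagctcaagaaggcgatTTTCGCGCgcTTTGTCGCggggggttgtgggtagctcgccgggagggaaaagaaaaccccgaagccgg
E2f3: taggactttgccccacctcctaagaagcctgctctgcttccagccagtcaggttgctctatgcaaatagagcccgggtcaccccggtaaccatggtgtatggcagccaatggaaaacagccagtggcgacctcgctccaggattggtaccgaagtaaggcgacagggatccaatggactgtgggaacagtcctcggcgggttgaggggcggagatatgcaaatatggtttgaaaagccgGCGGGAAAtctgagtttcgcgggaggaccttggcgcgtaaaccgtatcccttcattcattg
Counted from the start, the matches began at -18 and -8 in Rbl1, at -11 in E2f3 (as the reverse complement) and at -198 in Cdk6. Cdk6 and E2f3 had positive log2 fold changes (0.25 and 0.22) and Rbl1 a negative one (-0.15), and none of the 3 was called.

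Among the pocket proteins, Rb1 differed more between the Brg1-cKO libraries than between the groups. Rb1, the retinoblastoma protein that holds E2F factors inactive, lies on the minus strand of chromosome 14 (chr14:73183673-73325822, mm10). Reads of Rb1 came to 34.0 and 1.58 CPM in Brg1-cKO libraries (489 and 17 reads), against 25.6 and 24.7 CPM in control libraries (920 and 957 reads). One Brg1-cKO library was above and the other far below the controls, and the 17 reads of replicate 2 allow 0.921 to 2.53 CPM (exact Poisson 95% interval, counting error only). The replicates thus differed 21.5-fold, and the group difference had a log2 fold change of -0.50 with an SE of 1.41 (adjusted p = 0.908 in edgeR's quasi-likelihood test). Its sign turned to 0.42 without Brg1-cKO replicate 2 and the value was -4.02 without replicate 1. Antisense neighbours Lpar6 and Rcbtb2 overlap 6.78% and 8.11% of its exon length.

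Rbl1, a pocket protein that represses E2F targets with E2f4, lies on the minus strand of chromosome 2 (chr2:157145893-157204534, mm10). The Rbl1 level was 45.4 and 75.2 CPM in Brg1-cKO libraries, against 68.1 and 65.9 CPM in control libraries. Its Brg1-cKO libraries lay on either side of the controls (log2 fold change -0.15, SE 0.33, adjusted p = 0.875 in edgeR's quasi-likelihood test). The sign turned to 0.04 when counts were thinned to the smallest library, and to 0.14 without Brg1-cKO replicate 1. Rbl2, the third pocket protein, was at 16.1 and 67.0 CPM in Brg1-cKO libraries, against 24.2 and 28.9 CPM in control libraries. Where Rb1 was low, in Brg1-cKO replicate 2, Rbl1 and Rbl2 were at their highest, and the 3 genes summed to 15.4 and 21.7 RPKM in Brg1-cKO libraries, against 18.8 and 18.9 RPKM in control libraries.

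E2f3 encodes an activating E2F factor and lies on the minus strand of chromosome 13 (chr13:29906575-29986063, mm10). The E2f3 level was 139 and 96.7 CPM in Brg1-cKO libraries, against 105 and 96.7 CPM in control libraries, so Brg1-cKO replicate 2 matched the lower control and replicate 1 was above both. The log2 fold change was 0.22 (SE 0.25, adjusted p = 0.738 in edgeR's quasi-likelihood test), and it was -0.09 without Brg1-cKO replicate 1. The other activating factor named here, E2f1, was at 23.2 and 46.6 CPM in Brg1-cKO libraries, against 46.7 and 48.9 CPM in control libraries. E2f3 made up 49.5 ± 11.8% of the length-scaled counts of E2f1, E2f2 and E2f3 in Brg1-cKO libraries and 45.5 ± 3.56% in control libraries (SD, n = 2 each), with overlapping groups.

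All 3 inhibitors among the 10 genes had negative fold changes, and none was called. The gap between the Brg1-cKO libraries was wide for Cdkn1a and Cdkn2c. Cdkn1a, the Cip/Kip inhibitor best known as a target of p53, lies on the plus strand of chromosome 17 (chr17:29090976-29100727, mm10). Cdkn1a was counted at 0.348 and 4.65 CPM in Brg1-cKO libraries (5 and 50 reads), against 8.37 and 8.23 CPM in control libraries (301 and 319 reads). Both Brg1-cKO libraries were below both controls, at exact Poisson 95% intervals of 0.113 to 0.812 CPM and 3.45 to 6.13 CPM, but they differed 13.4-fold from each other. The mean was 2.50 ± 3.04 CPM for Brg1-cKO and 8.30 ± 0.0993 CPM for control (SD, n = 2 each), and the log2 fold change of -1.73 had an SE of 1.55 (adjusted p = 0.667 in edgeR's quasi-likelihood test). Without Brg1-cKO replicate 1 it was -0.86 and without replicate 2 it was -4.58. Of 15 genes of p53 and its targets, none passed an unadjusted p of 0.05, beside 5.44% higher and 12.9% lower of all genes tested. Fold changes were positive in 10 of the 15, beside 47.0% of all genes tested, and the groups overlapped in 9. The median log2 fold change of the list was 0.24 against -0.06 over all genes tested. Trp53 itself was at 237 and 162 CPM in Brg1-cKO libraries, against 164 and 173 CPM in control libraries.

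Cdkn1b, the Cip/Kip inhibitor that accumulates in cells leaving the cycle, lies on the plus strand of chromosome 6 (chr6:134920401-134925513, mm10). The Cdkn1b level was 40.1 and 26.7 CPM in Brg1-cKO libraries, against 47.3 and 42.4 CPM in control libraries. The groups did not overlap, although Brg1-cKO replicate 1 was near the lower control (log2 fold change -0.42, SE 0.34, adjusted p = 0.630 in edgeR's quasi-likelihood test). Cdkn2c, an INK4 inhibitor, lies on the minus strand of chromosome 4 (chr4:109660876-109667189, mm10). Cdkn2c was counted at 11.5 and 1.39 CPM in Brg1-cKO libraries (165 and 15 reads), against 7.68 and 6.12 CPM in control libraries (276 and 237 reads), one Brg1-cKO library above and the other below both controls. Its log2 fold change was -0.10 (SE 1.33, adjusted p = 0.983 in edgeR's quasi-likelihood test), and the sign turned without Brg1-cKO replicate 2 (0.72) and without control replicate 1 (0.04).

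The third Cip/Kip inhibitor, Cdkn1c, was higher in Brg1-cKO libraries, unlike Cdkn1a and Cdkn1b. Its level was 899 and 865 CPM in Brg1-cKO libraries, against 555 and 534 CPM in control libraries, with a log2 fold change of 0.70 (SE 0.08, unadjusted p = 0.000929, adjusted p = 0.166 in edgeR's quasi-likelihood test, 3.57e-13 in DESeq2). The podocyte markers given above were higher in the same libraries, and their part in the Cdkn1c level was not tested. Per kilobase, Cdkn1c exceeded Cdkn1b 49.98 and 72.39 times in Brg1-cKO libraries, against 26.2 and 28.1 times in control libraries. Cdkn1b made up 1.66 ± 0.426% of the length-scaled Cip/Kip counts in Brg1-cKO libraries and 3.53 ± 0.168% in control libraries, and Cdkn1a 0.163 ± 0.199% and 0.837 ± 0.0147% (SD, n = 2 each). The 3 genes summed to 450 and 432 RPKM in Brg1-cKO libraries, against 285 and 273 RPKM in control libraries (158% of control), with the exact permutation p at its smallest value of 0.333. An antisense gene overlaps 30.7% of the exon length of Cdkn1c, more than for any of the 10 genes.

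**Figure D3:**
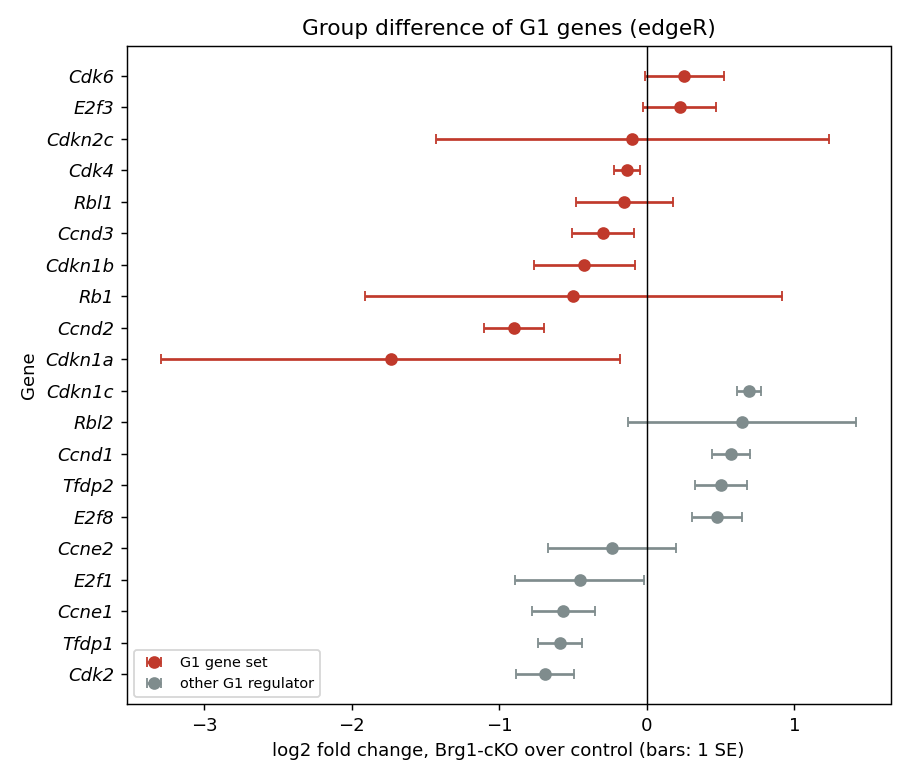
Log2 fold change, Brg1-cKO over control, with bars of 1 SE (edgeR), for the 10 G1 genes in red and for other G1 regulators in grey. Ccnd2 (-0.90) and Cdkn1c (0.70) stand off 0 by several SE, while Rb1, Cdkn1a and Cdkn2c have SEs above 1.

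The spread between replicates set what could be read from each gene. In all 10 genes the gap between the 2 Brg1-cKO libraries was wider than that between the 2 control libraries. For Ccnd2, Cdk4 and Cdk6 the Brg1-cKO gap was smaller than the difference between groups (0.50, 0.04 and 0.17 on the log2 scale). For the other 7 it was wider, up to 4.43 for Rb1, 3.74 for Cdkn1a and 3.04 for Cdkn2c. The 2 Brg1-cKO libraries did not differ in 1 direction: replicate 1 was higher in 5 genes (Ccnd3, Rb1, Cdkn1b, Cdkn2c, E2f3) and lower in 5 (Ccnd2, Cdk4, Cdk6, Rbl1, Cdkn1a). With 1 Brg1-cKO library left out, the other is assumed to vary like the controls. Then 55.5% of all genes pass an adjusted p of 0.05 without replicate 1 and 60.6% without replicate 2 in edgeR's quasi-likelihood test. Of the 10 genes, 6 pass in each case, with Ccnd2, Cdk4 and Rb1 in both, and Rb1 has opposite signs in them.

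**Figure D4:**
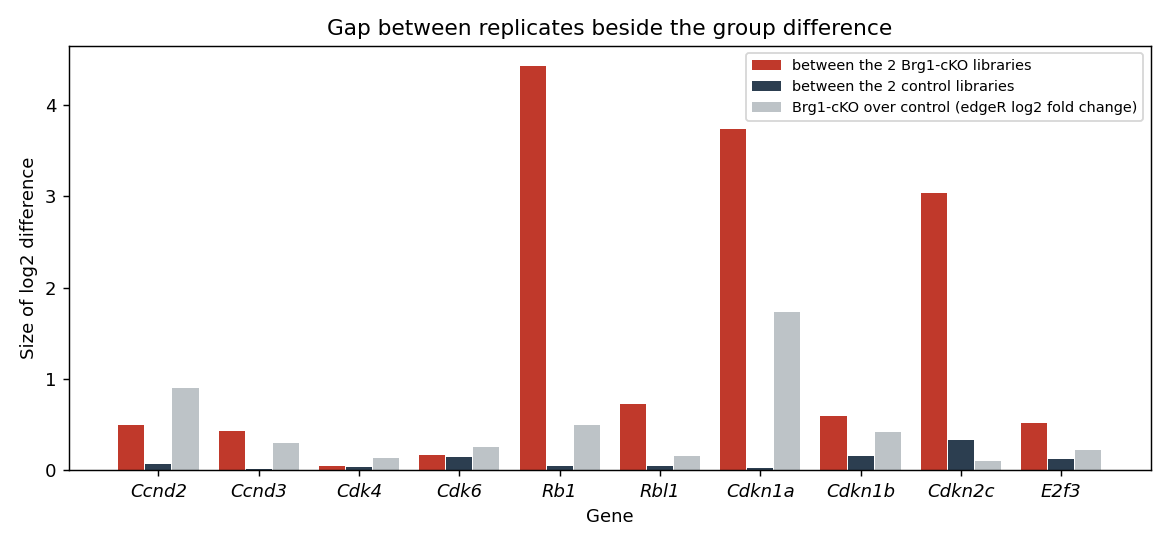
Size of the log2 difference between the 2 Brg1-cKO libraries (red), between the 2 control libraries (dark) and between the groups (grey, edgeR) for each of the 10 genes. The red bar is the tallest for 7 genes, up to 4.43 for Rb1, and the grey bar is the tallest for Ccnd2, Cdk4 and Cdk6.

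Per kilobase of merged exon length, Cdk4 had the highest level of the 10 genes in both groups, at 139 ± 2.83 RPKM in Brg1-cKO libraries and 153 ± 2.66 RPKM in control libraries (SD, n = 2 each). Ccnd2 came next, at 29.4 ± 7.12 RPKM and 54.8 ± 1.86 RPKM in Brg1-cKO and control libraries. E2f3 (21.7 and 18.6 RPKM), Ccnd3 (13.0 and 16.0 RPKM), Rbl1 (10.1 and 11.2 RPKM) and Cdkn1b (7.34 and 9.85 RPKM) followed in both groups, given as means of Brg1-cKO and then control. The lowest 4 were Cdk6 (3.30 and 2.77 RPKM), Rb1 (2.96 and 4.18 RPKM), Cdkn2c (2.40 and 2.57 RPKM) and Cdkn1a (0.703 and 2.34 RPKM). In control libraries Rb1 stood above Cdk6. Of the 9 pairs of neighbours in each group's own order, 6 overlapped among Brg1-cKO libraries and 2 among control libraries (Cdk6 with Cdkn2c, and Cdkn2c with Cdkn1a). Ranked among all genes tested, Ccnd2 stood at percentile 86.6 and 91.7 in Brg1-cKO libraries, against 95.9 and 96.2 in control libraries. The place of Ccnd3 depends on the length used: its merged exons span 8775 bp and its principal transcript 2113 bp. Per kilobase of principal transcript, Ccnd3 stood at 54.0 ± 11.2 in Brg1-cKO libraries and 66.3 ± 0.330 in control libraries, and Ccnd2 at 43.6 ± 10.6 and 81.4 ± 2.76 (CPM per kilobase, SD, n = 2 each).

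Of 26 other G1 regulators, 23 were tested, and none was called after adjustment in edgeR's quasi-likelihood test. At an unadjusted p under 0.05, 4 were higher (Ccnd1, Cdkn1c, Tfdp2, E2f8) and 2 were lower (Cdk2, Tfdp1) in Brg1-cKO libraries, beside 5.44% higher and 12.9% lower of all genes tested. DESeq2 put 8 higher and 4 lower at that level, beside 8.04% and 6.01% of the 30930 genes it tested. Those 30930 include genes with too few counts for the expression filter, so these shares are not of a like set. The median log2 fold change of the list was 0.22 against -0.06 over all genes tested. Cdk2, the partner of the E cyclins, was at 60.7 and 64.4 CPM in Brg1-cKO libraries, against 94.3 and 107 CPM in control libraries (log2 fold change -0.69, SE 0.20). Ccne1, which activates Cdk2, was at 55.0 and 65.3 CPM in Brg1-cKO libraries, against 87.6 and 90.3 CPM in control libraries (log2 fold change -0.56, SE 0.21). Both were non-overlapping and lower, as Ccnd2 was, whereas Ccne2 overlapped at 26.4 and 16.7 CPM in Brg1-cKO libraries, against 23.3 and 27.4 CPM in control libraries. The DNA-binding partners of the E2F factors differed in sign. Tfdp1 was at 110 and 120 CPM in Brg1-cKO libraries, against 170 and 175 CPM in control libraries. Tfdp2 was at 136 and 142 CPM in Brg1-cKO libraries, against 106 and 91.0 CPM in control libraries. E2f8, an atypical repressor E2F, was at 137 and 128 CPM in Brg1-cKO libraries, against 99.4 and 90.9 CPM in control libraries.

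Genes downstream of this circuit had fold changes of both signs. Of 20 E2F targets of DNA replication, 11 had positive and 9 negative log2 fold changes (median 0.08), none passed an adjusted p of 0.05, and 2 were higher at an unadjusted p under 0.05, beside 5.44% of all genes tested. These were Gins2 and Cdc45. Gins2, a subunit of the replicative helicase, was at 114 and 65.3 CPM in Brg1-cKO libraries, against 41.3 and 43.8 CPM in control libraries. The gene Gse1 on the opposite strand overlaps 67.3% of the exon length of Gins2. Whether strand was used in counting is not known, so reads of Gins2 and Gse1 cannot be told apart. Cdc45, a helicase cofactor, was at 73.2 and 101 CPM in Brg1-cKO libraries, against 46.1 and 55.5 CPM in control libraries. Of 12 mitosis genes, 5 had positive and 7 negative log2 fold changes (median -0.03), and none was at an unadjusted p under 0.05. The groups did not overlap in 11 of the 20 replication genes (7 higher, 4 lower) and in 4 of the 12 mitosis genes (1 higher, 3 lower) in Brg1-cKO libraries, beside 17.5% higher and 34.5% lower of all genes tested.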

How the data were processed

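RNA of sorted mouse kidney cells was sequenced as stranded single-end reads of 75 bp from 2 Brg1-cKO and 2 control libraries, per the labels' protocols. The authors deposited whole-number counts of reads per gene, and the mm10 build, TopHat and DESeq2 are named without versions, per the submitters' processing notes. The counting tool, its strand setting and its annotation are not given in the sources used here. Left out were the reads assigned to no gene, at shares of 65.5% and 72.1% in the Brg1-cKO libraries and 32.4% and 31.8% in the control libraries. Symbols, positions and exon lengths came from GENCODE mouse release M21 on the same build, and 52403 of 52636 identifiers had a symbol.

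The counts were fitted in R 4.3.3 with edgeR 4.0.16 (TMM, filterByExpr with a minimum count of 10, robust quasi-likelihood F test, Benjamini-Hochberg adjustment at 0.05 over 18172 genes) with the group as the only term. CPM values use TMM-scaled library sizes, and RPKM divides these by the merged exon length. Each SE was taken as the fitted log2 difference over the square root of F. Family shares and ratios were compared with two-sided exact permutation tests. Poisson intervals (95%) cover counting error only, and a count of 0 allows 3 counts, or 0.209 and 0.279 CPM for Brg1-cKO, against 0.0835 and 0.0774 CPM for control. The fit was also run on simulated counts drawn with the same dispersion for every library. That run does not bear on the wider spread between the Brg1-cKO libraries. DESeq2 1.42.0, limma 3.58.1, other scalings, filters, a replicate block and libraries left out were tried as alternatives.

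The 10 genes and the lists were chosen with earlier results of these data known. All 10 genes are named, with 8 set partners (Ccnd1, Rbl2, Cdkn1c, Ccne1, Ccne2, Cdk2, E2f1, Trp53) and up to 4 genes per list and direction at an unadjusted p under 0.05, at least 10 CPM and no overlap.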

Additional observations from a re-analysis of the deposited data

Results flagged for a closer look

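The share of uniquely aligned reads that fell in no counted feature, which the comparisons do not use, was higher in the Brg1-cKO libraries. It was 49.5% and 57.2% in Brg1-cKO libraries, against 16.5% and 15.4% in control libraries, with means of 53.4 ± 5.44% and 15.9 ± 0.778% (SD, n = 2 each). The exact permutation p was 0.333, the smallest that 2 against 2 libraries allow. Its part in the levels of the G1 genes was not tested.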

How the results depend on the processing

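The number of genes past an adjusted p of 0.05 was 0 in edgeR's quasi-likelihood test, 2021 in DESeq2, 2471 in edgeR's likelihood ratio test, 112 in limma-voom, 137 in limma-voom with a variance per group and 156 with the replicate block, and 16 to 13262 with 1 library left out. It stayed at 0 with the other scalings, filters, dispersions and thinned counts. Of the 10 G1 genes, 1 (Ccnd2) passed with the replicate block, in DESeq2 and in the likelihood ratio test, and 0 to 6 with 1 library left out. At an unadjusted p under 0.05 there were 1 to 8 with 1 library left out and 1 in each of the other alternatives. The deviations of same-numbered libraries from their group means had an r of -0.0164 over 18172 genes. With 2 libraries per group this rests on a single contrast, so it cannot show whether same-numbered libraries share more than a number.

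With 1 library left out, log2 fold changes ran from -4.02 to 0.42 for Rb1, -0.58 to 0.14 for Rbl1, -2.33 to 0.72 for Cdkn2c (0.04 without control replicate 1) and -0.088 to 0.44 for E2f3, so these changed sign. Rbl1 also did so with thinned counts (0.042). Ranges were -1.19 to -0.70 for Ccnd2, -0.55 to -0.12 for Ccnd3, -0.18 to -0.14 for Cdk4, 0.15 to 0.31 for Cdk6, -4.58 to -0.86 for Cdkn1a and -0.78 to -0.18 for Cdkn1b, without a change of sign. In these genes the groups did not overlap, so leaving out a library could not be expected to turn the sign. The Ccnd2 share of the D cyclins differed by -16.75 points (Brg1-cKO minus control), -20.35 points without division by length and -14.33 points with principal transcripts, an alternative added after seeing the data. With 1 Brg1-cKO library left out, more genes of each list reached an unadjusted p under 0.05 in both directions. The lists were the other G1 regulators, the replication genes, the mitosis genes and the p53 list. Calls over all genes tested rose in the same fits, so these rises are no result about the lists. The cause of these shifts was not tested. A filter of 10 CPM removes Cdkn1a and Cdkn2c, whose Brg1-cKO libraries differed beyond their counting intervals.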

Other observations

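Skp2, whose product marks Cdkn1b for degradation, was listed with 0 counts in all 4 libraries. The counting tool and annotation are not known, so absent RNA and reads not assigned to Skp2 cannot be told apart. Only if its reads could be assigned do 0 counts allow up to 0.279 CPM in the shallowest library. Cdkn2a and Cdkn2b, INK4 inhibitors like Cdkn2c, were at 0 in both Brg1-cKO libraries and at 0.181 CPM or less in the control libraries, and were not tested.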
